A study of Mus musculus with 6 samples.

Results

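The miR-34 and miR-449 family was followed in the lungs of newborn mice that breathed 95% oxygen or room air for their first 7 days of life. The wells were chosen by name alone: a well belonged to the family if its miRNA name was miR-34a, 34b, 34c, 449a, 449b or 449c in any species, with minor strand names left out. This gave 8 wells with 7 different names, among 750 miRNA wells on 2 PCR cards: 5 belonged to the first card and 3 to the second. The hyperoxia group held 3 lung samples of mice placed in 95% oxygen before 12 hours of age and kept there for 168 hours. The room air group held 3 samples of mice of the same age kept in room air for 7 days. Dams were exchanged between both conditions daily, the lung vessels were flushed with buffer, and the right lung was frozen. The sources used here do not state strain, sex or litter, nor that each sample of a group is a separate animal, so p-values cover only the variation among these 6 samples, part of which may be technical.

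miRNAs are short RNAs that pair with messenger RNAs mainly through bases 2 to 8 at their 5′ end, the seed, and lower the output of those messengers. Mir34a is a direct transcriptional target of the tumour suppressor p53 in mice and humans, and its product represses cell cycle, survival and metabolic genes such as Cdk6, Bcl2 and Sirt1. Mir34b and Mir34c share a transcript, and together with the Mir449 cluster they are typical of multiciliated cells of the airway, where mice that lack both loci fail to make normal motile cilia.

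Mature sequences for 4 of the 7 names were found in RefSeq (build GRCm38.p6) and are shown because the seed sorts the family. The sequences run 5′ to 3′ with bases 2 to 8 in capitals.
miR-34a-5p: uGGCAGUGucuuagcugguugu
miR-449a-5p: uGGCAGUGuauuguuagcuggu
miR-34b-5p: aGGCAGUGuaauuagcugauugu
miR-34b-3p: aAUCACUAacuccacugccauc
miR-34c-3p: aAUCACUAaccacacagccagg
The first 3 share the seed GGCAGUG. miR-34b-3p, from the other arm of the Mir34b hairpin, has the seed AUCACUA, which it shares with miR-34c-3p, the strand read by the minor strand well of Mir34c. Counted position by position from the 5′ end with no gap allowed, miR-34a-5p and miR-449a-5p are identical at 15 of 22 bases. Counted in the same way, miR-34a-5p and miR-34b-5p are identical at 11 of 22. miR-34b-5p has 23 bases, and its extra base puts the later bases of this pair out of step. The 11 therefore understates how alike they are, and the 2 counts do not rank the pairs. Whether an assay also reads a relative was not tested.

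Mir34a lies at chr4:150068454-150068555 on the plus strand, where the RefSeq gene table lists no overlapping gene. Mir34b (chr9:51103562-51103645) and Mir34c (chr9:51103034-51103110) lie on the minus strand with 451 bases between them, inside the spans of Hoatz on the same strand and Btg4 on the opposite strand. Mir449a (chr13:113037534-113037624) and Mir449b (chr13:113037419-113037498) are 35 bases apart inside the span of Cdc20b, a host gene that is also active in multiciliated cells. The table gives whole genes, so exon or intron is not stated. The Mir34b hairpin is printed because both of its arms, in capitals, were measured: miR-34b-5p on the second card and miR-34b-3p on the first.
Mir34b: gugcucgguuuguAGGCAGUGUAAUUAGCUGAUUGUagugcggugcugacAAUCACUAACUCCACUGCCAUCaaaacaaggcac

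Each well gives a threshold cycle (Ct), the number of PCR cycles needed for a detectable signal. An earlier Ct means more RNA, and at full efficiency 1 cycle is a fold of 2. A Ct of 35 or more was taken as not detected. Relative abundance is the mean Ct of the miRNAs detected in every sample of that card (282 of the first card, 249 of the second) minus the Ct of the assay, on a log2 scale. Hyperoxia was set against room air by limma across all 551 assays with values in at least 2 samples of each group, with Benjamini-Hochberg adjustment over all of them and a threshold of 0.05. Depth was 312 to 319 detected miRNAs per sample in hyperoxia and 307 to 317 in room air on the first card. On the second card, 308 of the 309 values amplified in both hyperoxia 2 and room air 1 were identical. Those values were left out of both samples, so second-card assays rest on 2 samples per group. miR-126-3p, an endothelial miRNA abundant in lung, had a Ct of 12.69 to 13.57 in hyperoxia and 11.30 to 12.70 in room air. An endothelial miRNA cannot by itself tell lung from other tissue with vessels, so the tissue label was not tested. miR-122, a liver miRNA that should be low in lung, had a Ct of 25.30 to 30.37 in hyperoxia and 24.95 to 26.90 in room air.

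Of the family, mmu-miR-34a (well names carry mmu for mouse) had the largest difference, toward more RNA in hyperoxia, and it was the only tested member whose Ct was earlier in every hyperoxia sample than in every room air sample. Its Ct was 19.34, 19.01 and 19.26 in hyperoxia 1, 2 and 3, against 20.87, 21.16 and 20.94 in room air 1, 2 and 3. Its relative abundance was 4.13, 3.61 and 4.05 in hyperoxia, against 1.16, 1.32 and 1.66 in room air. All 3 hyperoxia samples were high, all 3 room air samples were low, and the space between the groups was wider than either group. The log2 fold change was 2.55 ± 0.28 (SE, n = 3 each), a 5.85-fold higher level in hyperoxia. It ranked first of the 551 assays by p, and its limma adjusted p of 0.0723 missed the threshold. The spread of miR-34a within groups was 0.267 on the log2 scale, below the median of 0.458 over the 302 first-card assays tested.

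Over all assays, limma called 0 higher (0% of those tested) and 0 lower (0%) past the adjusted threshold, so 0 of the 7 tested family wells were called. At an unadjusted p under 0.05, 20 assays were higher (3.63%) and 30 lower (5.44%), and the family had 1 higher, miR-34a, and 1 lower, miR-449b of the second card. Without any reference, and over the samples with a value, all Ct of hyperoxia were earlier than all Ct of room air for 4 of the 302 first-card assays (1.32%) and later for 136 (45.0%). The 4, named here after their values were seen, were miR-34a, miR-21 and an assay of miR-322, each with values in all 6 samples, and miR-331-5p, which did not amplify in hyperoxia 3. The miR-322 assays of the cards differed. The first-card well had a log2 fold change of 6.87 ± 1.61 (SE, n = 3 each). The second-card well was at -0.41 ± 0.38 (SE, n = 2 each), with groups that overlapped. The call on miR-34a depended on how many assays were tested, how their spread was modelled and which reference was used. Its limma adjusted p was 0.0273 with the first card tested alone, 0.0342 with a trend of spread on abundance and 0.0311 with a Ct ceiling of 32. It was 0.230 with the U6 wells of plate row A as reference, 0.417 with control RNAs of the same card and 0.201 without normalization. It was 0.178 without room air 1 and 0.263 without both room air 1 and hyperoxia 2.

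**Figure D1:**
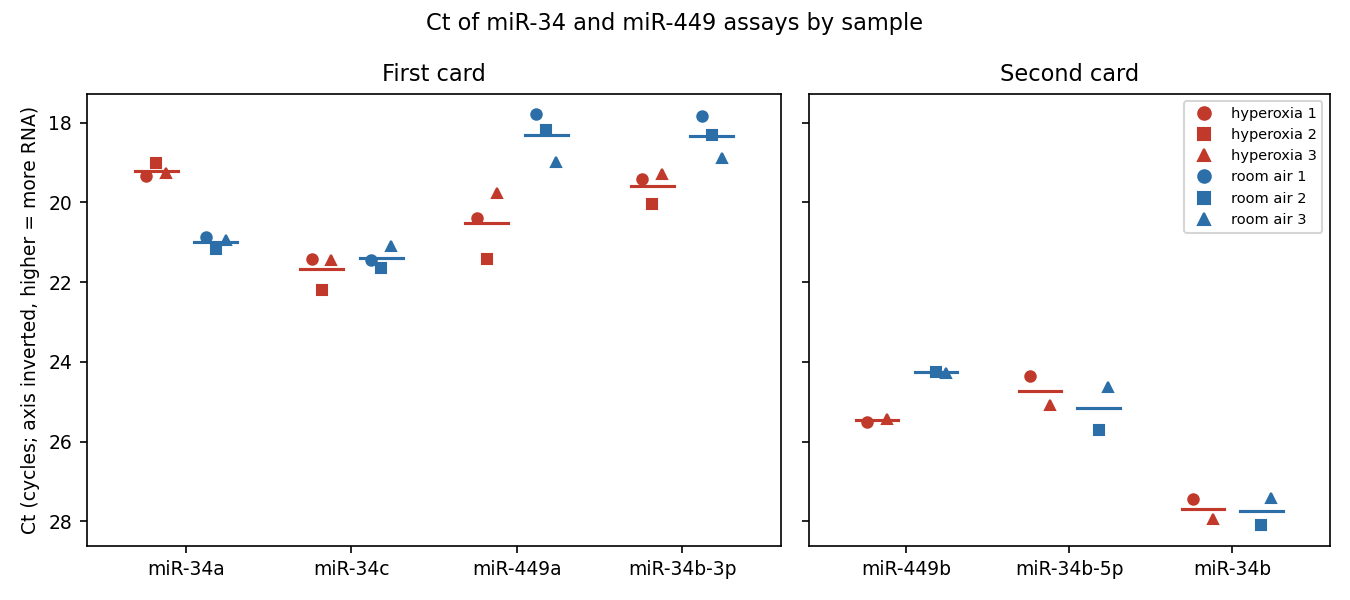
Ct of the 7 tested family wells in each sample (vertical axis in cycles, inverted so that more RNA is higher), hyperoxia in red left of room air in blue, with a marker shape per replicate number and a bar at each group mean. For miR-34a the hyperoxia samples lie at 19.01 to 19.34 and the room air samples at 20.87 to 21.16, while for miR-449a the hyperoxia samples lie lower, at 19.76 to 21.42 against 17.78 to 18.98.

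The direction of miR-34a was the same with each reference RNA of the first card. Its log2 fold change was 2.22 relative to the U6 wells of plate row A, 2.85 relative to those of row B, 1.71 to snoRNA135, 1.83 to snoRNA202, 1.66 to U87 and 2.20 to Y1. With each of these the lowest hyperoxia sample was above the highest room air sample. The exact permutation test, two-sided, gave 0.1, which is as low as 3 against 3 can reach. The share of all first-card assays without overlap is not given for these references. Relative to the mean of the detected miRNAs, 6.29% of first-card assays were higher without overlap. The references themselves moved by unequal amounts: the mean of the detected miRNAs was 0.76 cycles later in hyperoxia, U6 was 0.43 (row A) or 1.06 cycles (row B) later, and U87 was 0.13 cycles earlier (a difference of -0.13). A change of reference moves all 4 first-card members by the same amount, as the plot by reference RNA shows. Over the same 6 references, mmu-miR-34c lay between -0.42 and 0.77, so its sign depended on the reference. mmu-miR-34b-3p lay between -1.37 and -0.19 and mmu-miR-449a between -2.33 and -1.14, both lower in hyperoxia with each of them. For mmu-miR-449a the groups overlapped relative to snoRNA135 (exact permutation p = 0.2) and Y1 (exact permutation p = 0.3).

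**Figure D2:**
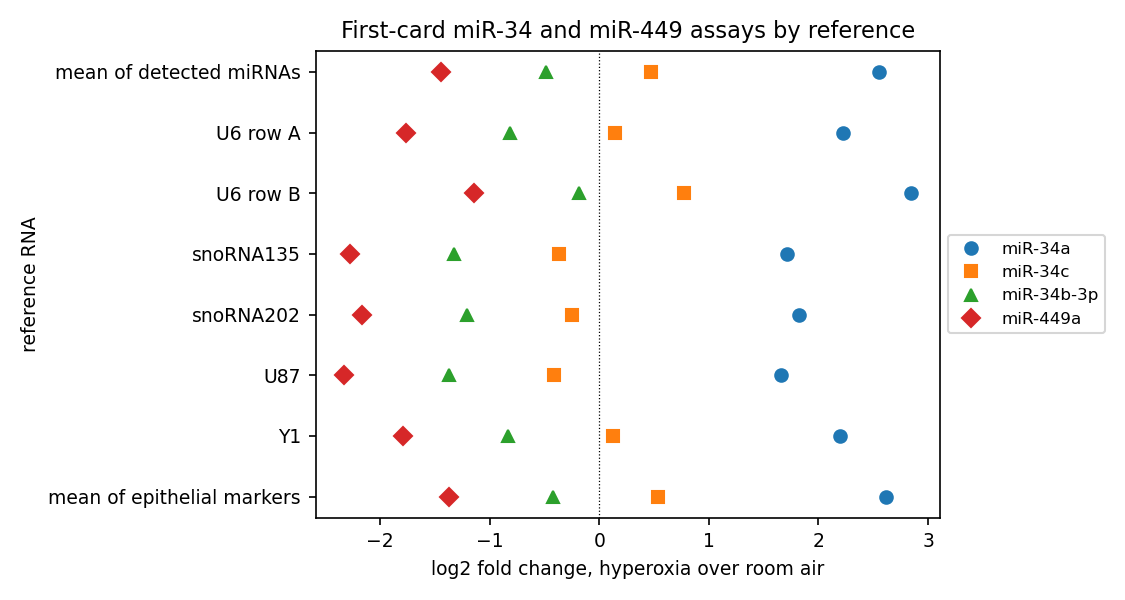
Log2 fold change of hyperoxia over room air (horizontal axis) of the 4 first-card members relative to each reference RNA or mean (vertical axis), each point a difference of group means over 3 samples each. miR-34a lies between 1.66 and 2.85 and miR-449a between -2.33 and -1.14 whatever the reference, whereas miR-34c lies on both sides of 0.

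Of the products of the Mir34b and Mir34c transcript, none passed, and the 4 tested family wells had log2 fold changes from -0.48 to 0.62. The spread within groups was 0.721 for miR-34c and 0.627 for miR-34b-3p, above the first-card median of 0.458, and 0.593 for miR-34b-5p and 0.369 for miR-34b, below the second-card median of 0.619. The main strand of Mir34c, mmu-miR-34c, had a relative abundance of 2.06, 0.41 and 1.87 in hyperoxia, against 0.58, 0.85 and 1.5 in room air. Hyperoxia 1 and 3 were above all room air samples and hyperoxia 2 was below them, so the groups overlapped. The log2 fold change was 0.47 ± 0.54 (SE, n = 3 each, limma adjusted p = 0.802), and 1.00 without hyperoxia 2. mmu-miR-34b-3p was at 4.05, 2.58 and 4.02 in hyperoxia, against 4.21, 4.18 and 3.72 in room air. Hyperoxia 2 was again the lowest sample, and the groups overlapped. Its log2 fold change was -0.48 ± 0.48 (SE, n = 3 each, limma adjusted p = 0.772), and 0.01 without hyperoxia 2.

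On the second card mmu-miR-34b-5p, the arm opposite to miR-34b-3p, was at 0.84 and 0.15 in hyperoxia 1 and 3, against -0.60 and 0.36 in room air 2 and 3. The groups overlapped, and the log2 fold change was 0.62 ± 0.54 (SE, n = 2 each, limma adjusted p = 0.754). It was 0.03 with the shared values kept in hyperoxia 2, 1.00 with them kept in room air 1, and 1.28 with the first-card mean as reference. The well named miR-34b, with no arm given, was at -2.23 and -2.70 in hyperoxia 1 and 3, against -3 and -2.42 in room air 2 and 3. These also overlapped, with a log2 fold change of 0.24 ± 0.42 (SE, n = 2 each, limma adjusted p = 0.875), and 0.91 with the first-card mean as reference. The minor strand of Mir34c, which is outside the family rule, was at 1.13 and 3.35 in hyperoxia 1 and 3, against 1.10 and 0.78 in room air 2 and 3. Its log2 fold change of 1.30 ± 0.89 (SE, n = 2 each, limma adjusted p = 0.689) had hyperoxia 3 far above the rest and hyperoxia 1 next to room air 2.

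The assay numbers beside the second-card names are displaced, since all 105 names that carry a number match the number listed 3 wells later. If the numbers and not the names were right, miR-34b-5p would be the well with a Ct of 22.75 and 22.99 in hyperoxia 1 and 3 and 21.98 and 22.47 in room air 2 and 3, at a log2 fold change of -0.46. The miR-34b assay would be the well named miR-501, at 1.45 ± 2.56 (SE), and the miR-449b assay the well named for the control RNA U87, at 0.68. Second-card identities are therefore less certain than those of the first card.

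mmu-miR-449a, a Mir449 cluster product with the seed of miR-34a, was lower in each hyperoxia sample than in any room air sample, by an amount that did not pass. Its Ct was 20.38, 21.42 and 19.76 in hyperoxia, against 17.78, 18.19 and 18.98 in room air. Its relative abundance was 3.09, 1.20 and 3.55 in hyperoxia, against 4.25, 4.29 and 3.62 in room air. Hyperoxia 2 lay far below the others, and hyperoxia 3 lay next to room air 3. The log2 fold change was -1.44 ± 0.67 (SE, n = 3 each, limma adjusted p = 0.632), which is 2.71-fold higher in room air, and it was -0.72 without hyperoxia 2. Its spread within groups was 0.921, larger than that of 240 of the 302 first-card assays. In a whole lung sample, fewer cells of a type and less RNA per cell cannot be told apart.

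mmu-miR-449b was read by a well on each card, and the cards differed in whether it was detected. The first-card well amplified in room air 1 alone (Ct 30.87) and was at a Ct of 40, no amplification, in the 3 hyperoxia samples and in room air 2 and 3, so it was not tested. The second-card well had a Ct of 25.51 and 25.43 in hyperoxia 1 and 3, against 24.25 and 24.27 in room air 2 and 3. Its log2 fold change was -1.03 ± 0.32 (SE, n = 2 each, limma adjusted p = 0.507), with both hyperoxia samples below both room air samples. It was 0.18 with the shared values kept in room air 1, -1.89 with them kept in hyperoxia 2, and -0.37 with the first-card mean as reference.

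Over the samples with a value, 1 of the 4 tested first-card wells was higher without overlap, miR-34a, where 6.29% of all first-card assays were, and 1 was lower without overlap, miR-449a, where 16.2% were. Of the 3 second-card wells, 0 were higher (12.4% of second-card assays) and 1 was lower (16.9%). The median log2 fold change of the 7 wells was 0.24 and that of all 551 assays -0.12, with 4 of the 7 positive and 3 negative.

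**Figure D3:**
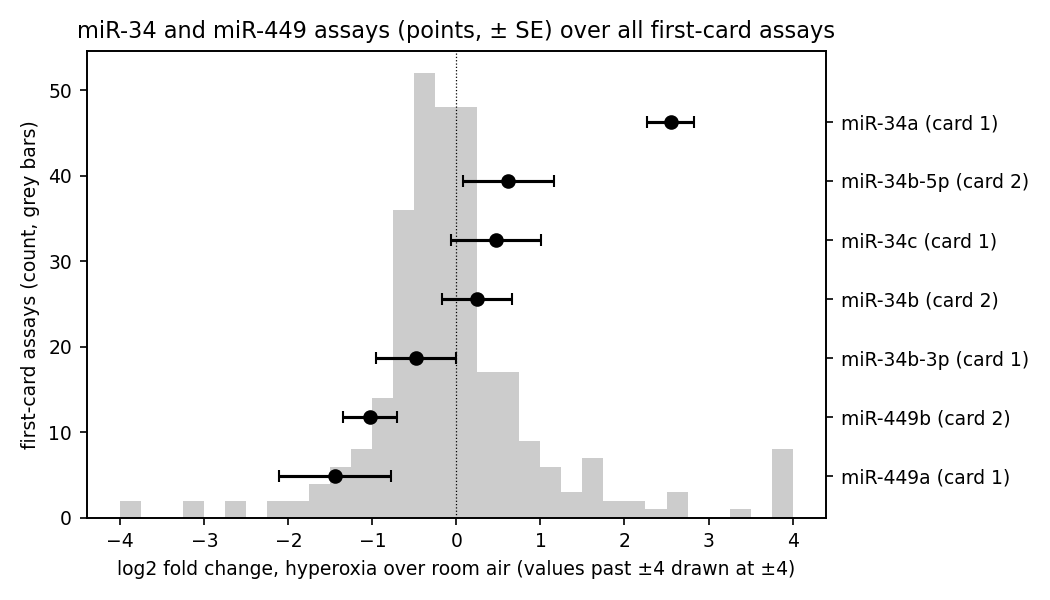
Log2 fold change of hyperoxia over room air (horizontal axis) for the 7 tested family wells as points with bars of ± SE from limma (right axis), over a histogram of the 302 tested first-card assays (grey, left axis, counts). miR-34a at 2.55 lies in the right tail of the histogram, miR-449a at -1.44 in the left tail and the Mir34b and Mir34c products near 0.

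The markers of lung and airway epithelium were read beside the ciliated cell miRNAs. All 11 first-card marker wells, among them the miR-200 family, miR-375 and miR-203, were detected in all 6 samples. Their summed relative abundance on the log2 scale was 7.67, 6.95 and 7.66 in hyperoxia, against 7.49, 7.63 and 7.5 in room air, so hyperoxia 2 was lowest here as it was for miR-449a, miR-34b-3p and miR-34c. Of these 11 wells 3 were positive and 8 negative, with a median of -0.07 beside -0.13 for all first-card assays, and 0 passed. The lowest log2 fold change of the 11, -0.49, was that of miR-375, found in endocrine and secretory epithelium. miR-375 was at 2.57, 0.98 and 2.46 in hyperoxia, against 2.57, 2.25 and 2.65 in room air. The highest, 0.31, was that of miR-183, at -1.05, -1.89 and -1.07 in hyperoxia, against -1.42, -1.97 and -1.56 in room air. For miR-183 hyperoxia 2 was not the lowest of all samples. Measured against the mean Ct of the 11 markers, a reference chosen after these values were seen, miR-449a was at 0.83, -0.42 and 1.23 in hyperoxia and 2.18, 2.25 and 1.33 in room air. That difference of -1.37 is close to the one relative to all miRNAs, and the groups did not overlap (exact permutation p = 0.1, the smallest possible). The share of all first-card assays without overlap is not given for the marker reference. Relative to all miRNAs, 16.2% of first-card assays were lower without overlap. Against the mean Ct of the markers, miR-34a was at 1.87, 1.99 and 1.73 in hyperoxia and -0.90, -0.72 and -0.63 in room air, a difference of 2.61. The adjusted p of miR-34a in that fit, limma on the first card alone, was 0.0141.

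The ratio of 2 members within a sample needs no reference RNA, and each ratio of miR-34a to another first-card member was higher in hyperoxia. miR-34a over miR-34c was 2.07, 3.20 and 2.18 in hyperoxia on the log2 scale of Ct differences, against 0.59, 0.47 and 0.16 in room air. miR-34a over miR-449a was 1.04, 2.41 and 0.50 in hyperoxia, against -3.08, -2.97 and -1.96 in room air. In every hyperoxia sample the Ct of miR-34a was thus the earlier of the pair, and in every room air sample that of miR-449a. The change in this ratio, 3.99 on the log2 scale, was the widest of the 9 pairs compared. miR-34a over miR-34b-3p was 0.08, 1.03 and 0.03 in hyperoxia, against -3.04, -2.86 and -2.06 in room air, a change of 3.03.

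Among the other first-card members, miR-34c over miR-449a was -1.03, -0.79 and -1.68 in hyperoxia, against -3.67, -3.44 and -2.12 in room air. Its change of 1.91 was near the 2.07 of miR-34a over miR-34c. miR-449a over miR-34b-3p was -0.96, -1.38 and -0.47 in hyperoxia, against 0.04, 0.11 and -0.10 in room air, a change of -0.96. Room air samples were nearly equal in this ratio, and each hyperoxia sample lay below them. miR-34c over miR-34b-3p, products of the same transcript, was -1.99, -2.17 and -2.15 in hyperoxia, against -3.63, -3.33 and -2.22 in room air, a change of 0.96. Here room air 3 lay beside the hyperoxia samples. In all 6 first-card pairs the groups did not overlap, with 0.1 by the exact permutation test, its lower limit here, or 0.15 after adjustment over the 9 pairs. These 6 pairs combine the same 4 wells, so they are not separate results. The share over pairs of all first-card assays was not computed, and among single first-card assays 22.5% did not overlap in either direction. The 3 second-card pairs had 0.333, the smallest for 2 against 2, so no pair could reach 0.05.

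**Figure D4:**
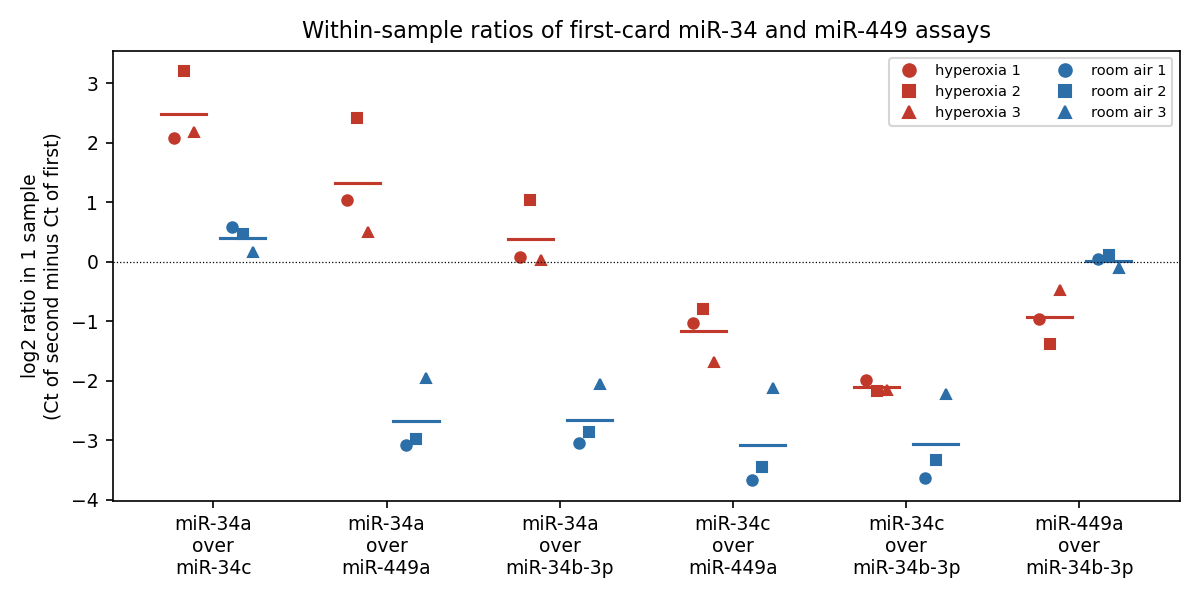
Log2 ratio of 2 first-card members within each sample (vertical axis, Ct of the second minus Ct of the first), hyperoxia in red left of room air in blue, with a marker shape per replicate number and a bar at each group mean. For miR-34a over miR-449a the hyperoxia samples lie at 0.50 to 2.41 and the room air samples at -3.08 to -1.96.

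The order of the members by Ct differed between the groups, though efficiencies of the assays are not known and a Ct does not give molecules. In hyperoxia the order was miR-34a (19.20 ± 0.17, SD, n = 3), miR-34b-3p (19.58 ± 0.40), miR-449a (20.52 ± 0.84) and miR-34c (21.68 ± 0.45). In room air it was miR-449a (18.32 ± 0.61, SD, n = 3), miR-34b-3p (18.34 ± 0.53), miR-34a (20.99 ± 0.15) and miR-34c (21.40 ± 0.27). Within samples, miR-34a and miR-34b-3p differed in hyperoxia by 0.38 ± 0.56 cycles (SD, n = 3), less than the spread. miR-449a and miR-34b-3p differed in room air by 0.02 ± 0.11 cycles (SD, n = 3). Among the 282 first-card miRNAs detected in every sample, ranked from the earliest Ct, miR-34a was in place 63, 64 and 52 in hyperoxia, against 122, 119 and 120 in room air. miR-449a was in place 84, 120 and 68 in hyperoxia, against 48, 54 and 69 in room air.

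Other miRNAs tied to p53 had log2 fold changes between -0.70 and 0.46. p53 raises transcription of Mir192, Mir194, Mir215, Mir107 and Mir200c, and it promotes processing of the precursors of miR-15a, miR-16, miR-143 and miR-145. These 9 names filled 11 tested wells, of which limma called 0 higher and 0 lower, as it did over all assays, 3 were positive and 8 negative, and the median was -0.22 beside -0.12 for all 551 assays. At an unadjusted p under 0.05, 0 wells were higher (3.63% of all assays) and 1 was lower (5.44% of all assays), miR-145, which is abundant in smooth muscle, at -0.68 ± 0.23 (SE, n = 3 each, limma adjusted p = 0.477). The other first-card smooth muscle marker, miR-143, was at 5.12, 5.17 and 5.06 in hyperoxia, against 5.14, 5.57 and 5.51 in room air. These groups overlapped, at -0.29 ± 0.24 (SE, n = 3 each, limma adjusted p = 0.738). The summed relative abundance of both markers was 7.83, 7.53 and 7.61 in hyperoxia, against 8.12, 8.39 and 8.32 in room air. That sum is mostly miR-145 itself, so it is not a separate value. The part of smooth muscle in the miR-145 value was not tested. miR-200c is on the epithelial list as well. miR-192 was at 0.18, 0.74 and 0.96 in hyperoxia, against 0.66, 0.84 and 0.50 in room air. miR-194, which is made from transcripts shared with miR-192 or miR-215, had a log2 fold change of -0.23 ± 0.29, miR-215 of 0.46 ± 0.49, miR-107 of -0.22 ± 0.25 and miR-16 of -0.70 ± 0.35 (SE, n = 3 each, limma adjusted p from 0.658 to 0.829). miR-16 was at 7.31, 7.34 and 7.33 in hyperoxia, against 8.41, 8.31 and 7.35 in room air. miR-605, also on the list, was not analysed here.

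The assays whose values over the 6 samples lay nearest to those of miR-34a were found by the root mean square difference after each assay's own mean was subtracted. Among 281 first-card assays, with a median difference of 1.44, the nearest was miR-21 (0.531), a miRNA known from tissue injury and fibrosis. Next came miR-221 (0.688), miR-509-3p (0.694), miR-29b (0.741) and miR-29c (0.803), the last pair being regulators of collagen genes. miR-21 was at 7.02, 6.47 and 6.28 in hyperoxia, against 4.55, 5.11 and 5.28 in room air. The groups did not overlap, but miR-21 was named here for its nearness to miR-34a, so this is not a separate result. Nearest to miR-449a, with a median difference of 1.06, were miR-708 (0.483), miR-294 (0.501), a miRNA of embryonic stem cells, miR-503 (0.548), miR-34b-3p (0.548) and miR-339-3p (0.604). The fourth of these is the family member from the Mir34b hairpin. These distances describe likeness over 6 samples of shared libraries and were not tested.

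In the authors' deposited table, which divides by U6 and carries no test, the fold of hyperoxia over room air was 4.67 for miR-34a, 1.11 for miR-34c, 0.57 for miR-34b-3p and 0.294 for miR-449a. For second-card wells the authors' deposited table gave 1.65 for miR-34b-5p, 1.39 for miR-34b and 0.771 for miR-449b, with the shared values counted in both groups. Its 0.164 for the first-card miR-449b well counts each Ct of 40 as a measurement, so that fold rests on the single room air 1 reading.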

How the data were processed

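miRNAs were measured by RT-PCR on 2 cards of 384 wells per sample. Per the labels' protocols, RNA was reverse transcribed with Megaplex primer pools A and B and pre-amplified for 12 cycles; the sources used here name no instrument, software or setting for the Ct. The authors deposited the Ct per well without normalization, with 40 for no amplification, and, per the file headers, a fold (ratio) of hyperoxia over room air. Wells were taken by their names.

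From the Ct values, relative abundance was computed within each card, with blanks and any Ct from 35 up as missing, and tested with limma 3.58.1 in R 4.3.3 (lmFit and eBayes, two-sided), after a test on simulated data. The second-card values shared by hyperoxia 2 and room air 1 were left out of both. Single values were compared by exact permutation. Named miRNAs were the family wells, the minor strand wells of their hairpins, a p53 list and the 5 assays nearest to miR-34a and to miR-449a. The family, lists and tests were chosen with earlier results of these data known. Alternatives covered references, Ct ceilings, shared values, assays tested, spread models, single samples and a replicate block. Sequences are from RefSeq. The number of samples limits the precision.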

Additional observations from a re-analysis of the deposited data

How the results depend on the processing

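miR-34a was higher in hyperoxia in all 26 alternatives (1.79 to 2.72; 2.44 to 2.72 with 1 sample left out) and passed in 6, with adjusted p from 0.0141 to 0.417: a Ct ceiling of 32 (2.57), Ct values of 40 taken as measured, the first card alone, eBayes with trend, eBayes with trend and robust (2.55 each), and epithelial markers as reference (2.61), the last added after the data were seen. In each of these 6, 1 family well was called, and 0 in the other settings. Over all assays limma called 8 with the Ct values of 40 taken as measured (4 higher, 4 lower), 1 in the other 5, and 0 to 1 with 1 sample left out. The call without hyperoxia 1 was the first-card miR-322 well. The p53 list had 0 calls throughout. miR-449a stayed negative in all 26 (-2.20 to -0.64). The median of all first-card assays was negative in these settings too, from -0.90 without normalization to -0.04 with Ct values of 40 taken as measured. Signs turned for miR-34c with control RNAs as reference (-0.0896) or none (-0.29), miR-34b with control RNAs (-0.18) or the shared values kept in hyperoxia 2 (-0.009998), and miR-449b with them kept in room air 1 (0.18). They also turned for miR-34b-3p without hyperoxia 2 (-0.75 to 0.0127 over single samples left out) or without both that sample and room air 1 (0.085), and, read by assay number, for miR-34b-5p (-0.46) and miR-449b (0.68); the cause was not tested. The sources used here do not state whether replicate numbers pair the samples. The deviations of same-numbered samples correlated at -0.34, -0.23 and -0.18, which cannot settle whether they share a litter or run. With the replicate block miR-34a was at 2.55 with an adjusted p of 0.150; second-card assays could not be fitted with it. Leaving out 1 of the 4 samples used on the second card left too few to test there.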

Other observations

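The second-card Ct values that hyperoxia 2 and room air 1 share, left out above, were 27.99 for miR-449b, 26.40 for miR-34b-5p, 28.37 for miR-34b and 26.70 for the minor strand of Mir34c. In all 4 wells this is later than in any other sample of either group. In the minor strand well, for example, the other samples had a Ct of 24.08 and 21.90 in hyperoxia 1 and 3, and 24.01 and 24.21 in room air 2 and 3. On the first card hyperoxia 2 had the latest Ct of all 6 samples for miR-34c, miR-34b-3p and miR-449a, at 22.20, 20.04 and 21.42, while room air 1 had the earliest for miR-34b-3p and miR-449a, at 17.82 and 17.78. To which sample the shared values belong was not tested.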
